A study of Mus musculus with 25 samples.

Results

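A group of 9 genes for transcription factors of the myeloid lineage, Spi1, Irf8, Cebpa, Cebpb, Maf, Tfec, Mitf, Klf2 and Klf4, were followed across sorted macrophages and fibroblasts of mouse lung and skin. They were chosen by symbol, with earlier results of these data known. They were 9 of 11867 genes in the lung table and 9 of 12661 genes in the skin table. Neutrophil-depleted mice, called NP, had the genotype Mrp8_CRE; Rosa26_DTR, and control mice, called WT, had the genotype Mrp8_WT; Rosa26_DTR. In this design a Cre recombinase driven by the Mrp8 promoter, which is active chiefly in neutrophils, switches on a diphtheria toxin receptor at Rosa26. Mice of both genotypes were C57BL/6, carried the Rosa26_DTR allele and were given diphtheria toxin intraperitoneally (10 µg/kg for 7 days), so the WT animals are toxin-treated controls. The labels used here give no age.

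Lung interstitial macrophages were sorted as CD45+CD68+F4/80+CD11c-CD11bhi cells and skin macrophages as CD45+CD11b+CD68+F4/80+ cells. Fibroblasts of both organs were CD45-CD31-EPCAM-PDGFRA+, and those of skin were also CD90.1+. Lung gave 3 NP and 3 WT libraries of each cell type. Skin gave 4 NP and 1 WT macrophage libraries, the WT one being replicate 3, and 3 NP and 3 WT fibroblast libraries, beside 2 libraries set apart. Nothing in the labels says whether replicates came from separate animals, so p-values reflect library-to-library spread alone, and that spread may be technical.

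The 2 libraries set apart are titled SKIN_MAC_WT1 and SKIN_MFIBRO_WT5 and are labelled as WT skin macrophages. Ptprc, the gene of CD45, was at 0.277 and 0.209 units in them and Cd68 at 0.390 and 0.905 units, whereas Col1a1 was at 15300 and 28900 units and Pdgfra at 297 and 435 units. These values go against a macrophage label, and results for skin macrophages are therefore given without these libraries, and with them where a call or a direction depends on it. In the other libraries Cd68, itself a marker of the macrophage sort, went with the labels. It averaged 1340 ± 73.7 units in NP lung macrophages and 1310 ± 203 units in WT lung macrophages (SD, n = 3 each). Lung fibroblasts had 18.1 units of Cd68 in NP and 18.5 units in WT. Skin macrophages had 1760 ± 234 units of Cd68 in NP (SD, n = 4) and 1890 units in the single WT library, against 5.40 and 1.93 units in NP and WT skin fibroblasts. One unit is the authors' normalised signal, whose scale differs between the organs, so no level is tested across them. Lung libraries held 124075 to 385925 estimated reads and skin libraries 6553115 to 27259903. One read was worth 3.0 to 6.81 units in lung and 0.0371 to 0.162 units in skin, so a lung value of a few units rests on 1 or 2 reads.

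In blood cell development these factors divide into regulators that open a myeloid programme and regulators that refine it. PU.1, encoded by Spi1, and the C/EBP factors act at enhancers of most macrophage genes, and IRF8 joins PU.1 on composite sites to favour monocyte and dendritic cell fates. MAF favours the resident, non-dividing macrophage state, the MiT/TFE factors MITF and TFEC act on lysosomal genes, and KLF2 and KLF4 restrain or shape inflammatory activation. C/EBPβ, C/EBPα, KLF2, KLF4, MAF and MITF also act outside the blood lineages, so the fibroblast libraries show which of the genes were read there too.

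Promoter sequences are shown for 4 genes: Tfec and Irf8, which were at or near 0 reads in skin fibroblasts, and Cebpb and Klf4, which were read in both cell types of both organs. Each is the 250 bases before the annotated start, 5′ to 3′ on the gene's strand, from RefSeq on GRCm38.p6. The Tfec window is chr6:16898442-16898691 (minus strand), the Irf8 window chr8:120736108-120736357 (plus), the Cebpb window chr2:167688665-167688914 (plus) and the Klf4 window chr4:55532476-55532725 (minus). Capitals mark GGAAGT, the core of a PU.1 site, and CCGCCC, a GC box of the kind that KLF and SP factors bind, on either strand.
Tfec: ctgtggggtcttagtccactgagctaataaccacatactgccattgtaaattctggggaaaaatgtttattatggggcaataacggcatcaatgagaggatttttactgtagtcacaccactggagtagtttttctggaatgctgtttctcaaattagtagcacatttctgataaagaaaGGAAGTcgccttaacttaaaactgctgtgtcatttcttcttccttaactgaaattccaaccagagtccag
Irf8: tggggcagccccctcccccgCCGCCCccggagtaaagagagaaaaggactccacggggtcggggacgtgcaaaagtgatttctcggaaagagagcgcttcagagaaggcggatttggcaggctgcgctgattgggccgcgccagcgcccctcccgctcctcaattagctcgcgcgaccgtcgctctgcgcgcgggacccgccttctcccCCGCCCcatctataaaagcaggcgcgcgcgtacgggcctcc
Cebpb: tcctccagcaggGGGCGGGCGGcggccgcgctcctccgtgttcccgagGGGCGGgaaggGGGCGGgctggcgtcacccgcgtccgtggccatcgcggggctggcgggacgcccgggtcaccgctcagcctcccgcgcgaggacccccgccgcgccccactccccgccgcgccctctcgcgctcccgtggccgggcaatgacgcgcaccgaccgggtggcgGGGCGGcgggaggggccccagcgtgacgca
Klf4: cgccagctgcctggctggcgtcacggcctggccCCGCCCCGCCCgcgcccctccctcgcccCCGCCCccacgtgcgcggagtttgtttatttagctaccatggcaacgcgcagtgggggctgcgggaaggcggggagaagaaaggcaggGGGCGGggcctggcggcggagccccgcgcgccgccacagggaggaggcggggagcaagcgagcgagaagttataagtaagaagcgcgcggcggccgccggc
The Tfec window held 1 GGAAGT, 70 bases before the start, and no CCGCCC. The other windows held no GGAAGT and 2 (Irf8), 5 (Cebpb) and 4 (Klf4) copies of CCGCCC, of which 2 copies overlap each other in Cebpb and in Klf4. Among all 32851 RefSeq windows, likewise cut to the 250 bases before each start, GGAAGT was in 19.7% and CCGCCC in 32.7%. Klf4 also had CACGTG, the E-box read by MiT/TFE factors, 182 bases before the start, a motif of 6.02% of windows. Irf8 had TATAAA 31 bases before the start, a motif of 12.4% of windows. These matches describe the letters of the windows and are not measured binding.

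Spi1 was the member that separated macrophages from fibroblasts most clearly in both organs. Spi1 (ENSMUSG00000002111, GRCm38 chr2:91082390-91115756, plus strand) encodes PU.1, the ETS factor without which macrophages do not form. It had 409, 252 and 262 units in NP lung macrophages and 317, 343 and 609 units in WT lung macrophages, against 17.0, 9.72 and 1.73 units in NP lung fibroblasts and 2.73, 2.89 and 5.35 units in WT lung fibroblasts. Every lung macrophage library lay above every lung fibroblast library, and the fibroblast values add up to 4 reads in NP and 1 read in WT. The log2 fold change of macrophages over fibroblasts was 5.84 (SE 0.38, adjusted p = 7.62e-14, limma with Benjamini-Hochberg adjustment over all genes tested).

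In skin, Spi1 had 497, 531, 421 and 539 units in NP macrophages and 302 units in the WT library. Skin fibroblasts had 2.37, 0.203 and 0.425 units in NP and 0.170, 0.198 and 0.369 units in WT. The lowest macrophage library was far above the highest fibroblast library, and the log2 fold change was 8.02 (SE 0.45, limma adjusted p = 7.46e-08). In the libraries set apart Spi1 was at 0 reads in SKIN_MAC_WT1 and at 0.116 units in SKIN_MFIBRO_WT5, both under the fibroblast range. With them counted as labelled, the log2 fold change was 5.30 (limma adjusted p = 0.00398).

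Irf8 (ENSMUSG00000041515, GRCm38 chr8:120736358-120756694, plus strand), the interferon regulatory factor of the monocyte and dendritic cell lineages, was higher in macrophages of both organs, and in skin was close to 0 in fibroblasts. In lung it had 83.0, 127 and 227 units in NP macrophages and 138, 103 and 140 units in WT macrophages. Lung fibroblasts had 37.4, 83.6 and 36.3 units in NP and 79.1, 67.0 and 65.5 units in WT. The lowest macrophage library lay just under the highest fibroblast library, so the cell types overlapped, and the log2 fold change was 1.14 (SE 0.28, limma adjusted p = 0.00186).

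Skin macrophages had 28.4, 58.8, 48.2 and 85.6 units of Irf8 in NP and 63.2 units in WT. Skin fibroblasts had 0.390, 0 reads and 0.764 units in NP and 0 reads, 0 reads and 0.369 units in WT, so that 24 reads in all came from 6 libraries. The groups did not overlap, and the log2 fold change was 5.54 (SE 0.59, limma adjusted p = 1.6e-05). SKIN_MAC_WT1 had 0 reads and SKIN_MFIBRO_WT5 had 4.85 units, and with both as labelled the log2 fold change was 3.97 (limma adjusted p = 0.0044). A predicted gene on the same strand, Gm20388, spans Irf8 without sharing exon bases. It averaged 15.4 and 13.4 units in NP and WT lung macrophages and 37.9 and 24.1 units in NP and WT lung fibroblasts. In skin it averaged 6.68 units in NP macrophages and 29.7 units in the WT macrophage library, and 14.5 and 33.0 units in NP and WT fibroblasts, where Irf8 was near 0. Its part in the Irf8 values was not tested.

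The C/EBP genes were higher in lung macrophages than in lung fibroblasts, and in skin their difference did not pass the test. Cebpa (ENSMUSG00000034957, GRCm38 chr7:35119293-35121928, plus strand) encodes C/EBPα, which acts early in the granulocyte and monocyte lineages and in adipocytes and hepatocytes. It had 58.4, 52.7 and 73.6 units in NP lung macrophages and 74.6, 91.4 and 26.7 units in WT lung macrophages. Lung fibroblasts had 3.40, 9.72 and 5.18 units in NP and 2.73, 14.4 and 12.5 units in WT, which add up to 3 and 5 reads. The lung groups did not overlap, and the log2 fold change was 2.93 (SE 0.45, limma adjusted p = 4.18e-06).

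In skin, Cebpa was read in all libraries of both cell types. Macrophages had 44.4, 64.9, 62.3 and 39.4 units in NP and 54.4 units in WT, and fibroblasts had 43.0, 43.6 and 24.9 units in NP and 84.3, 21.6 and 13.8 units in WT. The WT fibroblast library of replicate 3 was above every macrophage library. The log2 fold change was 0.68 (SE 0.49, 95% interval -0.39 to 1.75, limma adjusted p = 0.357), and without that fibroblast library it was 1.05 (limma adjusted p = 0.0459).

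Cebpb (ENSMUSG00000056501, GRCm38 chr2:167688915-167690418, plus strand) encodes C/EBPβ, which drives inflammatory and acute-phase genes and is active in many stromal cells. It had 243, 239 and 215 units in NP lung macrophages and 345, 481 and 490 units in WT lung macrophages. Lung fibroblasts had 153, 134 and 95.0 units in NP and 156, 153 and 141 units in WT. All macrophage libraries were above all fibroblast libraries, and the log2 fold change was 1.21 (SE 0.20, limma adjusted p = 1.49e-05).

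In skin, Cebpb had 23.9, 39.3, 16.2 and 33.3 units in NP macrophages and 30.8 units in WT macrophages, against 30.6, 9.19 and 22.9 units in NP fibroblasts and 29.2, 17.8 and 17.7 units in WT fibroblasts. The cell types overlapped in part, with 3 of the 5 macrophage libraries above every fibroblast library, and the log2 fold change was 0.51 (SE 0.48, 95% interval -0.52 to 1.55, limma adjusted p = 0.482). Tmem189 lies on the opposite strand and shares 312 exon bases with Cebpb, with 76.0 and 66.1 units in NP and WT lung macrophages and 16.6 and 12.4 units in NP and WT lung fibroblasts. In skin Tmem189 averaged 21.3 units in NP macrophages and 33.4 units in the WT macrophage library, where it was above Cebpb at 30.8 units, and 10.5 and 4.86 units in NP and WT fibroblasts. Whether counting used strand is not given in the sources used here, so reads of the overlapping stretch cannot be assigned with certainty.

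**Figure D1:**
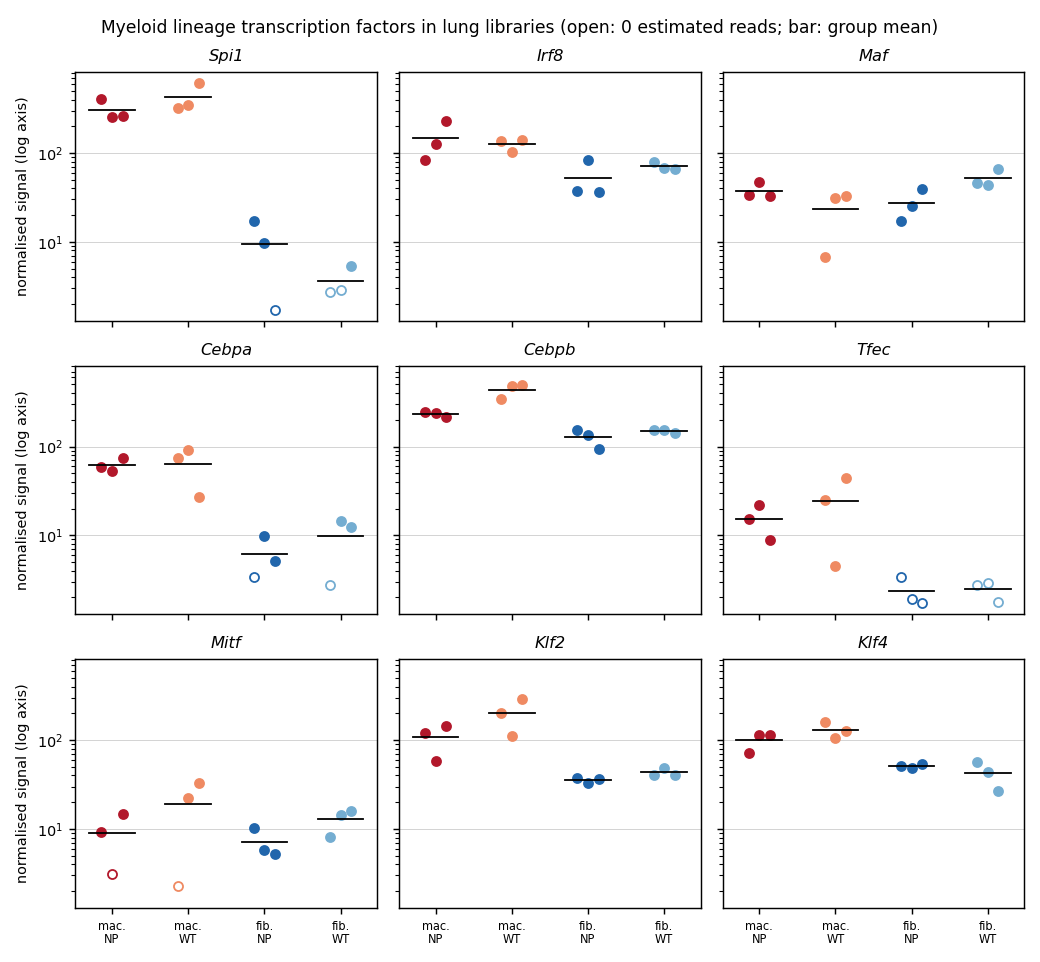
Normalised signal of the 9 genes in the 12 lung libraries, 1 panel per gene on a log axis, with groups from left to right as NP macrophages, WT macrophages, NP fibroblasts and WT fibroblasts. Points are libraries, bars are group means and open symbols are libraries with 0 estimated reads; Spi1 macrophage libraries sit between 252 and 609 units, above the fibroblast libraries at 1.73 to 17.0 units.

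Maf passed the test between cell types in skin and not in lung, and the difference between the organs was not tested. Maf (ENSMUSG00000055435, GRCm38 chr8:115682942-115707794, minus strand) encodes c-MAF, a bZIP factor that keeps macrophages differentiated and non-dividing. Lung macrophages had 33.8, 46.5 and 32.4 units in NP and 6.78, 31.5 and 32.7 units in WT, and lung fibroblasts had 17.0, 25.3 and 39.7 units in NP and 46.4, 43.3 and 66.0 units in WT. The cell types overlapped, and the log2 fold change was -0.42 (SE 0.39, 95% interval -1.22 to 0.38, limma adjusted p = 0.431).

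Skin macrophages had 127, 133, 244 and 121 units of Maf in NP and 464 units in WT. Skin fibroblasts had 79.6, 162 and 99.5 units in NP and 102, 47.1 and 87.7 units in WT. The NP fibroblast library of replicate 4 lay above 3 of the 5 macrophage libraries, so the groups overlapped. NP macrophages averaged 156 units and NP fibroblasts 114 units, while the WT macrophage library had 464 units and WT fibroblasts averaged 78.9 units. The 2 genotypes were weighted equally, so 1 library alone stood for WT macrophages in this contrast, and no fit left it out. The log2 fold change was 1.53 (SE 0.33, limma adjusted p = 0.00424). The libraries set apart had 76.4 units in SKIN_MAC_WT1 and 79.8 units in SKIN_MFIBRO_WT5, and with both as labelled the log2 fold change was 0.68 and no longer passed (limma adjusted p = 0.265). Gm15655 is antisense to Maf with 440 shared exon bases and reached at most 16.0 units in any lung library and 10.4 units in any skin library used.

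Tfec was the member read in macrophages and at 0 reads in every fibroblast library of both organs. Tfec (ENSMUSG00000029553, GRCm38 chr6:16833373-16898441, minus strand) encodes the MiT/TFE factor that in mice is largely limited to macrophages and osteoclasts. It had 15.4, 21.7 and 8.83 units in NP lung macrophages and 24.9, 4.50 and 44.5 units in WT lung macrophages, which add up to 6 and 13 reads. Set against a floor of 3 reads over the fibroblast libraries, the Tfec reads observed in lung macrophages were 6.93-fold higher. That value makes no allowance for error in the macrophage reads. The log2 fold change was 2.32 (SE 0.51, limma adjusted p = 0.00051).

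Skin macrophages had 40.2, 16.5, 22.3 and 34.4 units of Tfec in NP and 0.991 units, or 16 reads, in WT. It was at 0 reads in the 6 skin fibroblast libraries and in SKIN_MAC_WT1, and at 0.04 estimated reads in SKIN_MFIBRO_WT5. Against a floor of 3 reads over the fibroblast libraries, observed Tfec reads were 690-fold higher in the skin macrophage libraries pooled over genotype. The same limit holds for this value. Of the pooled reads 1326.8 came from NP and 16 from WT, so it rests on the NP libraries. The log2 fold change, with genotypes weighted equally, was 2.85 (SE 0.56, limma adjusted p = 0.00204).

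Mitf (ENSMUSG00000035158, GRCm38 chr6:97807052-98021349, plus strand), the MiT/TFE factor of melanocytes, mast cells and osteoclasts, was read thinly in lung and did not separate the cell types. Lung macrophages had 9.23 units, 0 reads and 14.7 units in NP and 0 reads, 22.5 units and 32.7 units in WT, and lung fibroblasts had 10.2, 5.83 and 5.18 units in NP and 8.19, 14.4 and 16.0 units in WT. The log2 fold change was 0.10 (SE 0.55, limma adjusted p = 0.912). In skin, NP macrophages had 0 reads and 10.1, 5.79 and 20.0 units and the WT library had 27.3 units, against 32.6, 2.87 and 10.5 units in NP fibroblasts and 25.3, 12.5 and 34.7 units in WT fibroblasts. The skin groups overlapped over nearly their whole range, and the log2 fold change was -0.27 (SE 0.92, 95% interval -2.26 to 1.72, limma adjusted p = 0.869).

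Klf2 and Klf4 were higher in macrophages than in fibroblasts of lung, and neither was in skin. Klf2 (ENSMUSG00000055148, GRCm38 chr8:72319033-72321656, plus strand) encodes a zinc finger factor that holds endothelial cells, lymphocytes and monocytes in a quiescent state. It had 120.0, 59.0 and 145 units in NP lung macrophages and 200, 112 and 288 units in WT lung macrophages, against 37.4, 33.0 and 36.3 units in NP lung fibroblasts and 40.9, 49.1 and 41.0 units in WT lung fibroblasts. Macrophages lay above fibroblasts in every lung library, and the log2 fold change was 1.78 (SE 0.29, limma adjusted p = 9.94e-06). Skin macrophages had 41.1, 84.8, 68.0 and 95.4 units in NP and 59.6 units in WT, and skin fibroblasts had 74.2, 77.8 and 121 units in NP and 46.0, 79.6 and 90.8 units in WT. The skin groups overlapped, with a log2 fold change of -0.29 (SE 0.34, 95% interval -1.03 to 0.46, limma adjusted p = 0.591).

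Klf4 (ENSMUSG00000003032, GRCm38 chr4:55527143-55532466, minus strand) encodes a factor of monocyte differentiation that is also strong in epithelia and stroma. It had 70.7, 115 and 115 units in NP lung macrophages and 161, 106 and 128 units in WT lung macrophages, against 51.1, 48.6 and 53.5 units in NP lung fibroblasts and 57.3, 43.3 and 26.7 units in WT lung fibroblasts. The lung groups did not overlap, and the log2 fold change was 1.29 (SE 0.27, limma adjusted p = 0.000368). Skin macrophages had 34.7, 87.4, 98.7 and 107 units in NP and 139 units in WT, and skin fibroblasts had 194, 304 and 122 units in NP and 282, 149 and 271 units in WT. Only the WT macrophage library reached into the fibroblast range. The skin log2 fold change was -1.02 (SE 0.39, 95% interval -1.87 to -0.16, limma adjusted p = 0.0767), which did not pass the test.

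**Figure D2:**
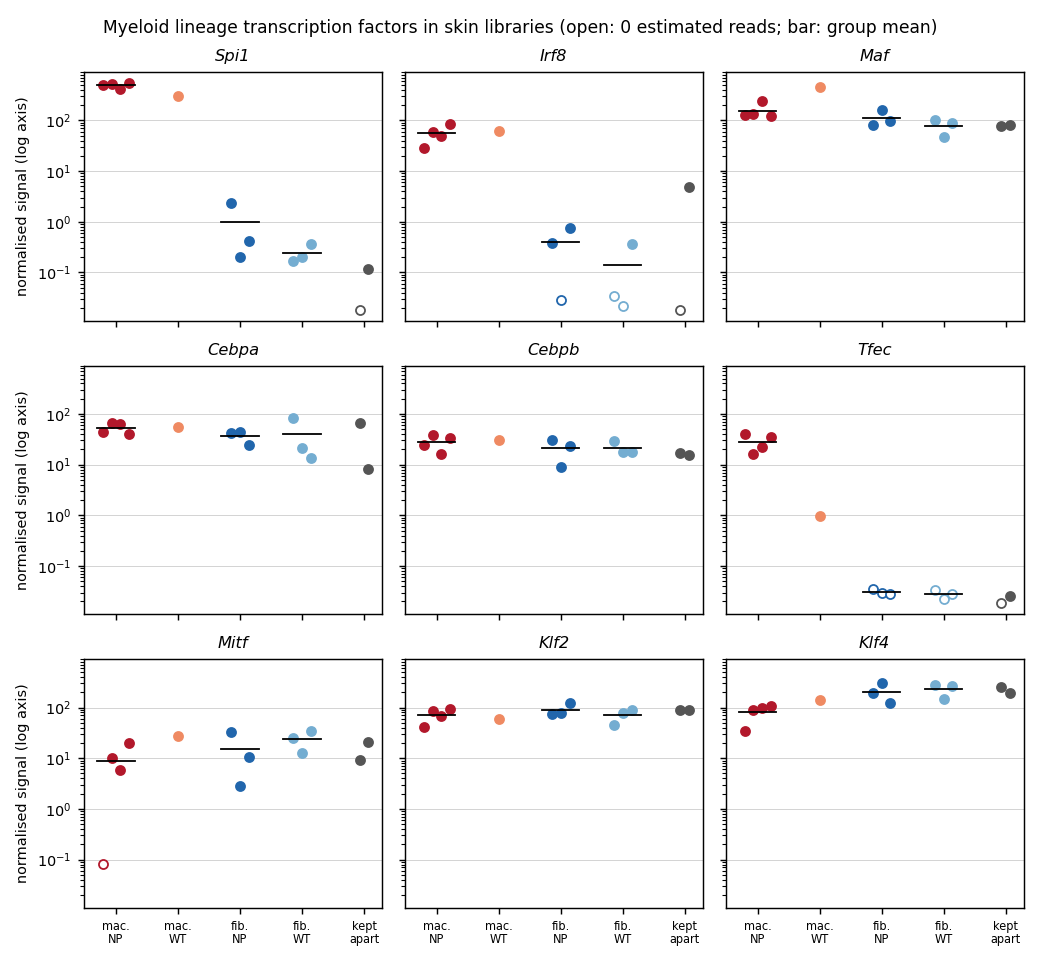
Normalised signal of the 9 genes in the 13 skin libraries, 1 panel per gene on a log axis, with groups from left to right as NP macrophages, WT macrophages, NP fibroblasts, WT fibroblasts and the 2 libraries set apart. Points are libraries, bars are group means and open symbols are libraries with 0 estimated reads; Tfec is at 16.5 to 40.2 units in NP macrophages, 0.991 units in the WT library and at 0 reads in the fibroblast libraries.

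Of the 9 genes, 7 were called higher in lung macrophages than in lung fibroblasts (Spi1, Irf8, Cebpa, Cebpb, Tfec, Klf2 and Klf4) and none lower, where 36.6% of all genes tested were called, 18.5% higher and 18.1% lower. In 6 of the 9, all of the 7 except Irf8, the 6 macrophage libraries lay above the 6 fibroblast libraries, as did 10.2% of all genes. In skin, 4 of the 9 were called higher (Spi1, Irf8, Maf and Tfec) and none lower, against 26.8% of all genes tested, 12.9% higher and 13.9% lower. In 3 of the 9, Spi1, Irf8 and Tfec, the skin groups did not overlap, with macrophages higher, as in 11.1% of all genes. The sort itself was made on proteins of the macrophage state, so a difference between the gated populations in these genes is a description of what was sorted.

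**Figure D3:**
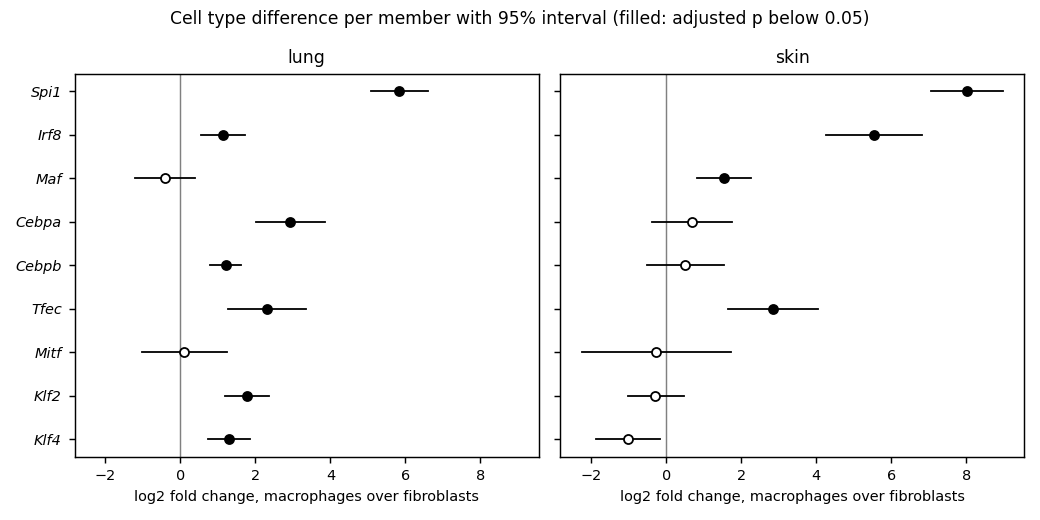
Log2 fold change of macrophages over fibroblasts for the 9 genes in lung and in skin, with 95% intervals from limma; filled points have an adjusted p under 0.05. Spi1 is farthest right in both organs, at 5.84 in lung and 8.02 in skin, and Tfec values are fitted values against groups with 0 reads.

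Levels were also ordered per kilobase of exon, the scale on which genes can be set beside each other, and neighbours were held apart where their means differed by more than the larger SD. In lung macrophages Cebpb led with a level of 223 ± 82.8 units per kb, followed by Spi1 at 136 ± 49.1 and Klf2 at 83.4 ± 43.4 units per kb (SD, n = 6 libraries). The next levels, Klf4 at 38.0 ± 9.58, Cebpa at 23.9 ± 8.47 and Irf8 at 19.3 ± 7.01 units per kb, formed a middle tier, of which Cebpa and Irf8 differed by less than their spread. Maf at 3.71 ± 1.57, Tfec at 3.57 ± 2.55 and Mitf at 2.27 ± 1.91 units per kb could not be ordered beyond their spread.

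Lung fibroblasts had Cebpb, Klf2 and Klf4 at the head of the order, at 92.1 ± 15.3, 21.5 ± 3.0 and 15.3 ± 3.57 units per kb. Irf8 at 8.71 ± 2.88, Maf at 4.81 ± 2.08, Cebpa at 3.03 ± 1.87, Spi1 at 2.44 ± 2.18 and Mitf at 1.61 ± 0.722 units per kb followed (SD, n = 6), and from Maf down each level lay within the spread of its neighbour. Tfec was at 0 reads.

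Skin macrophages had another order, with Spi1 first at a level of 170 ± 36.7 units per kb and a wide gap to Klf2 at 37.8 ± 11.5 units per kb (SD, n = 5 libraries). Klf4 at 30.6 ± 12.4, Maf at 26.4 ± 17.8, Cebpa at 20.1 ± 4.20 and Cebpb at 19.1 ± 5.92 units per kb did not separate from their neighbours beyond the spread. Irf8 at 8.06 ± 2.97, Tfec at 4.09 ± 2.76 and Mitf at 2.04 ± 1.77 units per kb were lowest, and Tfec and Mitf were within their spread. The pool held 4 NP libraries and 1 WT library, so this order is mostly that of NP. Spi1 led in both, at a mean of 184 units per kb in NP and 112 in the WT library. Maf was at 18.9 units per kb in NP and 56.3 in WT, and Tfec at 5.07 in NP and 0.177 in WT. In skin fibroblasts Klf4 at 72.2 ± 24.9 and Klf2 at 44.2 ± 13.3 units per kb led, then Cebpa at 14.6 ± 9.63, Cebpb at 14.1 ± 5.34, Maf at 11.7 ± 4.56 and Mitf at 3.19 ± 2.09 units per kb (SD, n = 6). Cebpa, Cebpb and Maf did not differ there beyond their spread. Spi1 at 0.231 ± 0.321 and Irf8 at 0.0380 ± 0.0422 units per kb were close to nothing there.

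The central question of the design is whether depleting neutrophils changed the neighbouring macrophages and fibroblasts. None of the 9 genes passed the test between NP and WT in any of the 4 populations. In lung macrophages limma called 0 of the 9 and 0.497% of all genes tested (59 of 11867, 0.0674% higher and 0.43% lower). At an unadjusted p under 0.05 it gave 2 of the 9, both lower in NP, beside 7.94% of all genes in either direction and 3.85% lower. Precision-weighted limma on the recovered read estimates (voom) likewise called 0 of the 9. The median log2 fold change of the 9 was -0.40, against 0.04 over all genes, with 3 values above 0 and 6 below, where 52.3% of all genes were above 0 and 47.7% below.

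Cebpb was the member with the smallest p in lung macrophages and the only one there whose groups did not overlap, against 12.2% of all genes. Its NP libraries averaged 232 ± 15.2 units and its WT libraries 439 ± 81.5 units (SD, n = 3 each), and the log2 fold change was -0.90 (SE 0.26, 95% interval -1.42 to -0.37, limma adjusted p = 0.147). It ranked 101 of 11867 by p. Over the alternatives its adjusted p ran between 0.0732 and 0.695. Klf2 had 108 ± 44.2 units in NP and 200 ± 87.9 units in WT (SD, n = 3 each), and the log2 fold change was -0.88 (SE 0.35, 95% interval -1.58 to -0.18, limma adjusted p = 0.455), and its groups overlapped.

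The other members in lung macrophages had intervals that include 0. Spi1 had a log2 fold change of -0.43 (SE 0.28) and Klf4 of -0.40 (SE 0.33), while Irf8 at 0.09 (SE 0.34) and Cebpa at 0.10 (SE 0.44) were close to no difference. Maf, at 0.90 (SE 0.64), had 1 low WT library, and Tfec, at -0.27 (SE 0.84), rested on 6 against 13 reads. Mitf had 3 reads in NP and 12 in WT, a ratio of depth-scaled reads of 0.366 (95% counting interval 0.0664 to 1.36). Limma adjusted p-values of these 7 ran between 0.741 and 0.979. In bulk libraries, fewer cells of a type and less RNA per cell cannot be told apart.

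Markers of other cell types moved with the genotype in the lung macrophage libraries. The neutrophil list summed to 0.156 to 0.188% of the signal in NP and 0.798 to 1.66% in WT, and 8 of its 11 genes were called lower in NP. S100a8, which encodes a neutrophil granule-associated calcium-binding protein, averaged 1040 ± 140 units in NP and 6520 ± 3650 units in WT (SD, n = 3 each), and Ly6g, which marks neutrophils, 29.2 ± 12.2 units in NP and 22.0 ± 5.59 units in WT. Of 2 mast cell genes tested, Hdc, the histidine decarboxylase gene, was called lower (37.4 ± 15.3 units in NP and 225 ± 93.6 units in WT), while Cpa3 had 0 reads in NP and 2 reads in WT. The B and plasma cell list summed to 0.0215 to 0.0609% in NP and 0.0768 to 0.192% in WT, with 2 of 6 genes called lower. The lung epithelium list summed to 0.918 to 2.14% in NP and 0.203 to 0.872% in WT, with 3 genes called higher. Its surfactant gene Sftpc averaged 11300 ± 3790 units in NP and 4970 ± 2980 units in WT (SD, n = 3 each). Of 15 immediate-early genes, 13 had a fold change below 0, beside 47.7% of all genes, and none was called. Their sums were 0.584 to 0.826% in NP and 0.843 to 0.918% in WT. Macrophage markers summed to 1.17 to 1.35% in NP and 1.10 to 1.21% in WT, and the dendritic cell list to 0.0991 to 0.155% in NP and 0.0571 to 0.101% in WT. The part of these lists in the Cebpb and Klf2 values was not tested.

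In lung fibroblasts limma called 0 of the 9 genes between NP and WT and 0.00843% of all genes tested (1 of 11867), and 0 of the 9 at an unadjusted p under 0.05, beside 5.06% of all genes. Voom called 0 of the 9. Maf averaged 27.3 ± 11.5 units in NP and 51.9 ± 12.3 units in WT and Klf2 35.6 ± 2.28 units in NP and 43.7 ± 4.70 units in WT (SD, n = 3 each). Both were lower in every NP library than in any WT library, 2 of 9 genes, where 4.26% of all genes were (9.2% without overlap in either direction). Maf rested on 19 reads in NP and 33 in WT, and Klf2 on 23 in NP and 26 in WT. The log2 fold change of Maf was -0.95 (SE 0.50, 95% interval -1.95 to 0.04, limma adjusted p = 0.969) and that of Klf2 -0.29 (SE 0.48, limma adjusted p = 0.988).

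The remaining lung fibroblast values were also unsettled. Irf8 had a log2 fold change of -0.53 (SE 0.41), Cebpb of -0.26 (SE 0.30) and Klf4 of 0.32 (SE 0.45), with limma adjusted p = 0.988 for each. Spi1, Cebpa and Mitf rested on few reads: the ratio of depth-scaled reads in NP over WT was 3.67 for Spi1 (95% counting interval 0.363 to 181, 4 against 1 reads), 0.551 for Cebpa (0.0855 to 2.83) and 0.393 for Mitf (0.0656 to 1.72). Macrophage markers summed to 0.0123 to 0.0207% of the signal in NP lung fibroblasts and 0.0118 to 0.0208% in WT. The lung epithelium list summed to 0.198 to 0.562% in NP and 0.0572 to 0.219% in WT, with 10 of 12 genes above 0 in fold change. The 1 gene called in lung fibroblasts was on it: Scgb1a1, a club cell secretory gene, with 633 ± 346 units in NP and 216 ± 49.9 units in WT (SD, n = 3 each; log2 fold change 1.43, limma adjusted p = 0.00671). The dendritic cell list summed to 0.0123 to 0.0169% in NP and 0.00799 to 0.0116% in WT, and the fibroblast list to 0.282 to 0.349% in NP and 0.329 to 0.411% in WT, with no gene of either called. The part of these lists in the lung fibroblast values was not tested.

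In skin macrophages the comparison was 4 NP libraries against 1 WT library, which the model assumes to vary like the other groups. Limma called 0 of the 9 genes and 0% of all 12661 genes, and at an unadjusted p under 0.05 it gave 1 of the 9 higher and 1 lower, beside 5.46% of all genes, 2.87% higher and 2.58% lower. Voom called 0 of the 9. In 5 of the 9 the WT library lay outside the NP range, as it did for 48.5% of all genes. Spi1 and Tfec were higher in the 4 NP libraries than in the WT library, and Maf, Mitf and Klf4 were lower.

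Tfec had the smallest p of the 9 in skin macrophages. Its 16.5 to 40.2 units in NP, 248 to 503 reads per library, stood against 0.991 units and 16 reads in WT, a log2 fold change of 3.8 (SE 0.90, 95% interval 1.85 to 5.75, limma adjusted p = 0.434, rank 31 of 12661). Over the alternatives its adjusted p ran between 0.0703 and 0.865. Maf had 121 to 244 units in NP against 464 units in WT, a log2 fold change of -1.63 (SE 0.54, 95% interval -2.80 to -0.46, limma adjusted p = 0.769). With the libraries set apart counted as WT macrophages, as labelled, the log2 fold change of Maf was 0.07 (limma adjusted p = 0.96), that of Tfec 4.44 (limma adjusted p = 0.0879) and that of Spi1 6.14 (limma adjusted p = 0.0961). Irf8 (2.85), Cebpa (0.69), Cebpb (0.40) and Klf2 (-0.16) had the opposite sign in that setting from their values without the libraries set apart, and none passed the test.

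Spi1 had a log2 fold change of 0.71 (SE 0.72), Mitf of -2.14 (SE 1.48), Klf4 of -0.87 (SE 0.63), Irf8 of -0.29 (SE 0.95), Klf2 of 0.21 (SE 0.55), Cebpb of -0.20 (SE 0.77) and Cebpa of -0.07 (SE 0.80) in NP over WT skin macrophages. None passed the test. The WT library held more signal of other cell types than the NP libraries: the fibroblast list summed to 0.0217 to 0.108% in NP and 0.178% in WT, the keratinocyte list to 0.141 to 0.336% in NP and 0.621% in WT, and the mast cell list to 0.001 to 0.00949% in NP and 0.034% in WT. Mcpt4, a mast cell protease, was at 0.0809 to 6.29 units in NP and 57.8 units in WT. Macrophage markers summed to 1.06 to 1.31% in NP and 1.31% in WT. Maf was lower in each of the 6 skin fibroblast libraries, at 47.1 to 162 units, than in the WT macrophage library. The part of the other cell types in the skin macrophage values was not tested.

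In skin fibroblasts 6 of the 9 genes passed the filter on low values, since Spi1, Irf8 and Tfec were too low in both genotypes. Limma called 0 of the 6 and 0% of all 11780 genes tested, 0 of the 6 at an unadjusted p under 0.05 beside 2.40% of all genes, and voom called 0. No member was free of overlap between the genotypes, against 8.47% of all genes. Maf had a log2 fold change of 0.53 (SE 0.40), Cebpa of 0.28 (SE 0.66), Klf2 of 0.35 (SE 0.38), Cebpb of -0.16 (SE 0.68), Klf4 of -0.22 (SE 0.38) and Mitf of -1.03 (SE 0.91). Their limma adjusted p-values ran between 0.955 and 0.987. The fibroblast list summed to 5.16 to 7.29% of the signal in NP and 8.03 to 10.2% in WT, without overlap, and its 8 genes all had a fold change below 0. Col1a1, a collagen gene, averaged 11100 ± 2540 units in NP and 21300 ± 5980 units in WT (SD, n = 3 each). The keratinocyte list summed to 0.137 to 1.69% in NP and 0.305 to 0.456% in WT, with its 9 genes all above 0 in fold change. No gene of either list was called, and their part in the skin fibroblast values was not tested.

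**Figure D4:**
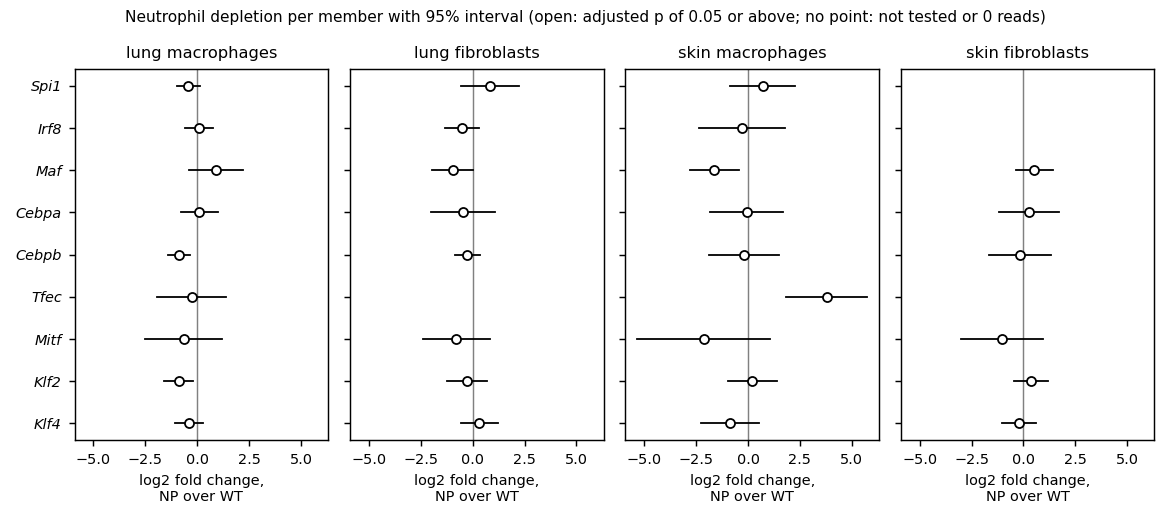
Log2 fold change of NP over WT for the 9 genes in the 4 populations, with 95% intervals from limma; open points have an adjusted p of at least 0.05, and a gene without a point was not tested or had 0 reads in both genotypes. All points are open, with Cebpb at -0.90 in lung macrophages and Tfec at 3.8 in skin macrophages.

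Whether the difference between NP and WT depended on cell type was tested with an interaction term, which subtracts the fibroblast log2 fold change from the macrophage one. In skin every such value rests on the single WT macrophage library. Tfec had 0 reads in skin fibroblasts, so its skin value repeats the macrophage one and does not test dependence on cell type. In lung limma called 0 of the 9 and 0.0169% of all genes, with 1 of the 9 at an unadjusted p under 0.05 beside 5.5% of all genes. That gene was Maf, with a log2 difference of 1.85 (SE 0.78, limma adjusted p = 0.876), made up of 0.90 in macrophages and -0.95 in fibroblasts. Spi1 had -1.27 (limma adjusted p = 0.887) and Cebpb -0.64 (limma adjusted p = 0.909). The Spi1 value takes in a fibroblast log2 fold change of 0.84 that rests on 4 reads in NP and 1 in WT. In skin limma called 0 of the 9 and 0% of all genes (4.23% at an unadjusted p under 0.05), with Tfec at 3.8 (SE 1.11) and Maf at -2.16 (SE 0.67), both at an unadjusted p under 0.05 and each with a limma adjusted p = 0.964. Voom called 0 of the 9 in either organ.

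Genes on which these factors are known to act were followed as lists. Over all genes tested, 18.5% were called higher and 18.1% lower in lung macrophages than in lung fibroblasts, and 12.9% and 13.9% in skin. All 20 PU.1 targets tested were called higher in macrophages than in fibroblasts in lung and all 20 in skin, with a median log2 fold change of 5.83 in lung and 8.07 in skin, against -0.09 over all genes of either organ. Several encode proteins of the sort gates or standard macrophage markers, so the lists describe the sorted cells. Of the IRF8 targets, 6 of 7 were called higher in lung and 7 of 7 in skin. The lung exception was Cst3, the cystatin C gene, at 0.06 (limma adjusted p = 0.752). Of the C/EBP targets, 5 of 6 were called higher in each organ, the exception in both being Il6. Of the MAF-dependent genes of resident macrophages, 11 of 11 were called higher in lung and 11 of 12 in skin, where Lyve1, a hyaluronan receptor, had a log2 fold change of 2.37 (limma adjusted p = 0.0951).

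The MiT/TFE and KLF lists were divided between the cell types, beside the same shares of all genes as above. Of 11 MiT/TFE targets, 7 were called higher in lung macrophages, and in skin 4 were called higher and 1 lower. The skin genes were Atp6v0d2 at a log2 fold change of 5.86, Csf3r at 4.18 and Atp6v1h at 0.99 among the higher ones, and Ctsk, the cathepsin K gene of osteoclasts and fibroblasts, at -2.49. Of 6 KLF targets, 3 were called higher and 3 lower in lung macrophages. Thbd, the thrombomodulin gene, was at -3.10, Cd34 at -4.05 and Cdkn1c, a cell cycle inhibitor, at -3.14 in lung. The same 3 genes were called lower in skin macrophages, at -2.58, -6.20 and -5.04, and none of the KLF list was called higher there.

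Of 27 other myeloid regulators tested, 21 were called higher and 1 lower in lung macrophages, and 13 higher and 1 lower in skin macrophages. The shares over all genes were 18.5% higher and 18.1% lower in lung, and 12.9% and 13.9% in skin. Ikzf1, which encodes the lymphoid and myeloid zinc finger factor Ikaros, was at a log2 fold change of 4.46 in lung and 5.24 in skin. Fli1, an ETS factor, was at 4.47 in lung. Batf3, a factor of dendritic cells, was at 4.85 and Irf5, an interferon regulatory factor of inflammatory macrophages, at 3.68 in skin. The exceptions were Nr1h3, the liver X receptor alpha gene, at -1.46 in lung and Bhlhe41 at -1.86 in skin.

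Between NP and WT lung macrophages, few genes of these lists passed the test, where limma called 0.497% of all genes. Of the 27 regulators, 1 was called, Ets2, an ETS factor of signal-induced transcription, with 61.5 ± 29.5 units in NP and 190 ± 8.17 units in WT (SD, n = 3 each; log2 fold change -1.76, limma adjusted p = 0.00607). Of the 20 PU.1 targets and 7 IRF8 targets limma called 0, with 3 of each list at an unadjusted p under 0.05, beside 7.94% of all genes. Among PU.1 targets, Ptprc had 266 ± 37.5 units in NP and 425 ± 76.6 units in WT (limma adjusted p = 0.45). Fcgr1, the high-affinity IgG receptor gene on both lists, had 92.0 ± 13.1 units in NP and 52.5 ± 8.31 units in WT (SD, n = 3 each throughout; limma adjusted p = 0.613). The IRF8 target Ctsc, the cathepsin C gene, had 2170 ± 406 units in NP and 1340 ± 482 units in WT (limma adjusted p = 0.356).

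Of the 6 C/EBP targets tested, Il1b and Csf3r were called lower and Lyz1 higher in NP. The neutrophil list summed to 0.156 to 0.188% of the signal in the same NP libraries and 0.798 to 1.66% in WT. The part of other cell types in the values of these targets and of Ets2 was not tested. Il1b, the interleukin 1 beta gene, had 362 ± 105 units in NP and 1960 ± 364 units in WT (SD, n = 3 each; log2 fold change -2.46, limma adjusted p = 5.12e-09), and it was called with each library left out in turn.

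Csf3r, the receptor gene for the granulocyte growth factor G-CSF, had 46.2 ± 29.5 units in NP and 199 ± 33.6 units in WT (SD, n = 3 each; log2 fold change -2.24, limma adjusted p = 0.000323). It stands on the neutrophil list and among the MiT/TFE targets as well, where it was the only gene of 11 called. Lyz1, a lysozyme gene, had 452 ± 11.6 units in NP and 167 ± 34.1 units in WT (SD, n = 3 each; log2 fold change 1.45, limma adjusted p = 0.00113), and reads may be shared with its near-identical neighbour Lyz2.

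Of the 11 MAF-dependent genes, 10 had a fold change above 0 in NP lung macrophages, beside 52.3% of all genes. The median of the list was 0.66 against 0.04 over all genes, and 1 was called. That gene, Cd209f, a C-type lectin gene, had 181 ± 47.3 units in NP and 68.7 ± 45.3 units in WT (SD, n = 3 each; log2 fold change 1.53, limma adjusted p = 0.036). F13a1, the factor XIII A gene, was at 1.05 (limma adjusted p = 0.121).

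These calls leaned on single libraries to different degrees. Ets2 lost its call without NP replicate 2 and without each WT library (limma adjusted p up to 0.409), and Cd209f without NP replicates 1 and 3 and without each WT library (up to 0.509). Csf3r lost its call without WT replicates 2 and 3 (up to 0.223), and Lyz1 without the same pair (up to 0.118). In the other 3 populations no gene of the regulator and target lists was called between NP and WT.

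The lists in those 3 populations are given by their counts. In skin macrophages 16 of 20 PU.1 targets, 10 of 11 MiT/TFE targets and 5 of 7 IRF8 targets had a fold change above 0, with medians of 0.51, 0.22 and 0.26, against -0.06 over all genes. There 9 of 12 MAF-dependent genes and 5 of 6 KLF targets were below 0, with medians of -0.35 and -0.72. All 6 C/EBP targets in lung fibroblasts had a fold change above 0, with a median of 0.69 against -0.01 over all genes, among them Il6, a cytokine gene, at 2.85 (SE 0.80, limma adjusted p = 0.466). In skin fibroblasts 6 of the 20 PU.1 targets passed the filter on low values, with a median of -0.25 against 0.03 over all genes.

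The genes whose levels ran most like each member over the libraries were sought within a similar level, as the smallest mean absolute difference between centred log2 profiles over 12 lung or 11 skin libraries. For Spi1 they were Plbd1 and Gmfg in lung, at differences of 0.43 and 0.46, and Ptprc and Napsa in skin, at 0.18 and 0.20. For Irf8 they were Anp32b and Ppp3ca in lung (0.20 and 0.25) and Pik3cg and Itgax in skin (0.18 and 0.24). Cebpa had Pdlim1 and Abhd12 in lung (0.39 and 0.44) and Snrpe and Chchd5 in skin (0.20 and 0.22), and Cebpb had Fosl2 and Ddx5 in lung (0.17 and 0.23) and Xaf1 and Acadl in skin (0.23 and 0.25). For Maf they were Dnajb12 and Trim33 in lung (0.27 and 0.31) and Rps12-ps3 and Rps29 in skin (0.30 and 0.31). No gene was the nearest to a member in both organs among these pairs.

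Tfec ran most like Gcnt1 and Nfkbid in lung (0.27 and 0.28) and Klra2 and Kcnab2 in skin (0.29 and 0.33). Mitf had Vrk3 and Zfp986 in lung (0.33 and 0.41) and Bmi1 and Pou2f1 in skin (0.42 and 0.43). Klf2 had Trib1 and Edem2 in lung (both 0.34) and Ebna1bp2 and Psmd5 in skin (0.20 and 0.21), and Klf4 had Ap1s2 and Atp1b3 in lung (both 0.26) and Nisch and Arid1b in skin (0.25 and 0.27). With so many genes searched over few libraries, such likeness is a description of these libraries.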

How the data were processed

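RNA of sorted cells was amplified with the Ovation Single Cell RNA-Seq System and read as 61 nt single ends, per the labels' protocols. The submitters' processing notes name CASAVA 1.8, cutadapt 1.7.1, RSEM 1.7.1, limma 3.46 and build mm10. The authors deposited 1 table of normalised signal per organ. The method of normalisation is not given in the sources used here, and the tables were scaled separately. Each value was (estimated reads + 0.5) times a constant of its library, and the smallest value in each library was taken as 0 reads. By that step 70.0 to 82.2% of lung values and 27.4 to 58.0% of skin values came out whole within 0.01 reads.

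Limma 3.58.1 in R 4.3.3 (variance trend, two-sided, Benjamini-Hochberg threshold 0.05 over all genes tested) was fitted to log2(signal + pseudocount), with pseudocounts of 1.042 in lung and 1.001 in skin, 1 ppm of the mean library total. Fold changes on this scale understate the change of low genes. Genes needed 1 ppm in as many libraries as the smallest group compared. NP was compared with WT per cell type, in skin macrophages from the model of all 4 groups, and cell types and the interaction were tested in all 4 groups of an organ. Between cell types the 2 genotypes were weighted equally, so the single WT skin macrophage library weighed as much as the 4 NP ones. Precision is limited by 3 to 4 libraries a group and 1 for WT skin macrophages. Counting intervals cover counting error only, and floors cover it only in the group with 0 reads. The procedure was tested on simulated data. All 9 genes are named in every comparison. From each list the genes called and up to 3 with the lowest p are eligible between genotypes and up to 4 between cell types; list exceptions named beside a count were chosen after their values were seen. The genes and lists were chosen with earlier results of these data known. Gene positions are from GENCODE M21 on GRCm38, and promoters from RefSeq, which held 7 of the 9 genes. Some list genes are not reported here.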

Additional observations from a re-analysis of the deposited data

Results flagged for a closer look

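Maf in NP skin macrophages was flagged because 1 library stood far from the other 3. Replicate 3 had 243.7 units, while the others had 121 to 133 units. The gap was 0.902 of the group's range, above Dixon's 95% critical value for 4 samples. Among 9 groups tested in this way 1 was flagged, and chance flags about 1 in 20 groups.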

How the results depend on the processing

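Counts of members called were 7 in the lung cell type comparison under every alternative run and 0 between NP and WT and for the interaction under every alternative run. Among genes called in all, lung macrophages NP against WT (59) gave 27 with quantile normalisation, 0 without a variance trend, 18 in the model of all 4 groups and 11 to 70 leaving out 1 library. Lung fibroblasts (1) gave 0 with quantile normalisation, without a trend and in the model of all 4 groups, 4 with voom and 0 to 7 leaving out 1 library. Skin macrophages (0) gave 2 with the smaller pseudocount and 0 to 1 leaving out 1 library, and skin fibroblasts (0) gave 0 to 16. The skin cell types (3392) gave 1983 with the libraries set apart as labelled and 2959 to 3577 leaving out 1 library, and the lung cell types (4340) gave 4006 to 4159. The lung interaction (2) gave 6 with the larger pseudocount, 1 with quantile normalisation, 0 without a trend, 1 with voom and 1 to 6 leaving out 1 library; the skin interaction gave 0 to 0. The cause was not tested. No fit left out the single WT skin macrophage library.

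Deviations from the group means correlated at -0.06 to 0.15 between libraries that share a replicate number. Pairs of NP with WT differ in genotype, so equal numbers there cannot mark the same animal. In fits of NP against WT the block therefore does not stand for an animal. For macrophages and fibroblasts of the same genotype, with 3 to 4 libraries a group, these values cannot decide whether equal numbers mark the same animal. With the replicate number as a block the counts were 67 in lung macrophages, 4 in lung fibroblasts, 84 in skin fibroblasts, 5819 for the skin cell types, 4298 for the lung cell types, 2 for the lung interaction, 201 for the skin interaction and 0 for skin macrophages as labelled. In the block fits of skin fibroblasts, the skin cell types and the skin interaction, several replicate numbers mark a lone library. The block absorbs such libraries, so almost no spread is left to estimate error. Those counts, and the Klf4 call with the block given below, cannot be set beside the main fits. For the skin cell types the block reversed Cebpa (-0.01) and Klf2 (0.14). For the skin interaction it reversed Spi1 (-0.08), Cebpa (1.23), Cebpb (0.36) and Klf4 (0.35). For skin macrophages as labelled, against the fit without the set apart libraries, it reversed Irf8 (2.78), Maf (0.13), Cebpa (0.59), Cebpb (0.22) and Klf2 (-0.26).

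In the skin cell type comparison 4 members were called, 5 with quantile normalisation, where Klf4 was lower (-1.13, limma adjusted p = 0.029), 3 as labelled and 4 to 5 leaving out 1 library; Klf4 was also called with the block (-0.84, limma adjusted p = 0.0321) and without NP fibroblast replicate 5 (-1.18, limma adjusted p = 0.0481). As labelled, NP over WT skin macrophages reversed for Irf8 (2.85), Maf (0.07), Cebpa (0.69), Cebpb (0.40) and Klf2 (-0.16), and the interaction for Irf8 (2.58), Cebpa (0.42) and Cebpb (0.55). Voom reversed Cebpa (-0.03) and Tfec (0.10) in lung macrophages, Tfec (0.10) in the lung interaction and Spi1 (-0.62), Cebpb (0.02) and Klf2 (0.01) in the skin interaction. The larger pseudocount reversed Mitf (-0.02) in the lung interaction, the smaller one Spi1 (-0.27) in the skin interaction and median-ratio scaling Cebpb (0.04) there.

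Leaving out 1 library reversed log2 values that were near 0 or rested on few reads. In NP over WT lung macrophages Cebpa ran between -0.43 and 0.44, Irf8 between -0.29 and 0.43 and Tfec between -1.15 and 0.37. Skin macrophages gave -0.18 to 0.05 for Cebpa and -0.38 to 0.03 for Cebpb. In skin fibroblasts Cebpa ran between -0.24 and 1.02, Cebpb between -0.50 and 0.32 and Klf4 between -0.54 and 0.11. Mitf ran between -0.23 and 0.61 for the lung cell types and -0.67 and 0.15 for the skin cell types. In the lung interaction Mitf ran between -0.90 and 0.77 and Tfec between -1.09 and 0.43; in the skin interaction Cebpa ran between -1.09 and 0.17, Cebpb between -0.52 and 0.30, Klf2 between -0.34 and 0.15 and Spi1 between -0.11 and 0.63. Depth limits Tfec, Mitf and, in fibroblasts, Spi1, Cebpa, Maf and Klf2 of lung, where 1 library can hold a handful of reads.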
